A study of Mus musculus with 4 samples.

Results

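Cultures of activated CD8 T cells consist mostly of dividing cells, and the cells described here are those in which no transcript of the proliferation genes Mki67 and Top2a and none of the memory transcription factor gene Tcf7 was counted. They are called triple-negative cells below. A droplet barcode counted as a cell with at least 6500 unique molecular identifiers (UMIs), at least 500 genes and under 10% of UMIs in mitochondrially encoded genes, and a cell was triple-negative with 0 UMIs of Mki67, Top2a and Tcf7 and under 3 UMIs of Il7r. Of 9921 cells in 4 libraries, 571 were triple-negative, 164 and 177 in the butyrate libraries and 96 and 134 in the control libraries. The cells were thus selected on the measured UMIs of these 4 genes, so the levels of these genes, and the levels of triple-negative cells set against those of the remaining cells, are given as description with no test. Tests are given for butyrate against control and for whether that contrast differed between the classes of cells.

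The cells came from spleens of gBT-I.CD45.1 tg mice, whose CD8 T cells carry a transgenic T cell receptor for the gB498-505 peptide of herpes simplex virus, so 1 receptor specificity stands for the CD8 response. Splenocytes were activated with peptide-pulsed B6 splenocytes and LPS and expanded in recombinant human IL-2 at 12.5 U/ml. In the butyrate group 0.5 mM sodium butyrate was present from day 3 to day 5 after activation, and the control group received PBS. On day 6 viable cells positive for CD8 and Vα2 were sorted and loaded for 10x Genomics 3' sequencing (v3.1), in 1 batch, with 1 butyrate and 1 control culture from each of 2 mice, so the replicate number stands for the mouse and n = 2 per group throughout.

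Mki67 encodes a chromosome coat protein of cycling cells and Top2a the DNA topoisomerase that untangles chromosomes, and both are transcribed mainly in S, G2 and mitosis, so cells early in G1 and cells that have left the cycle both have little of either. Tcf7 encodes TCF-1, which keeps memory and stem-like T cells in their state, and Il7r encodes CD127, the receptor chain for the survival cytokine IL-7. Butyrate, which gut bacteria release as they ferment fibre, inhibits histone deacetylases, and histone deacetylase inhibitors are known to slow the cycle at the border of G1 and S.

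Library totals lay between 64388093 and 76522004 UMIs, and 64 and 83 barcodes in butyrate against 225 and 308 in control were left out for their mitochondrial share. Triple-negative cells had fewer UMIs than the rest of their cultures, with medians of 14316 and 15203 UMIs per cell in butyrate and 11890.5 and 11292.5 in control, against 25561 and 24457 for other butyrate cells and 22365 and 20954.5 for other control cells. A rule on 0 UMIs favours cells with few UMIs: with the rule applied after thinning every cell to 6500 UMIs, the medians were 20777 and 19622 in butyrate and 14441 and 14172.5 in control, against 25510.5 and 24583.5 for other butyrate cells and 22758.5 and 21165.5 for other control cells. Their median mitochondrial shares were 4.43 and 4.45% in butyrate and 5.10 and 4.82% in control. After each cell was thinned at random to 6500 UMIs, median genes per triple-negative cell were 1847 and 1828 in butyrate and 1832.5 and 1872 in control, which overlap. Median UMIs did not overlap between the groups, but with 2 libraries against 2 an exact two-sided permutation test cannot go below p = 0.333. Between 1 and 5 kept barcodes were shared by any pair of libraries, and no triple-negative barcode was shared.

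Triple-negative cells made up 6.40% of the cells of butyrate culture 1 (95% exact binomial interval 5.49 to 7.42) and 6.66% of butyrate culture 2 (5.74 to 7.68), against 4.65% of control culture 1 (3.78 to 5.65) and 5.08% of control culture 2 (4.27 to 5.99). The means were 6.53 ± 0.182% in butyrate and 4.86 ± 0.305% in control (SD, n = 2 each), a difference of 1.67 percentage points in which the cultures did not overlap. The intervals cover counting error only. Which criterion was applied set the direction of this difference. Tcf7 was at 0 UMIs in 88.4 and 87.0% of all butyrate cells, against 72.2 and 73.5% of all control cells, whereas Mki67 and Top2a together were at 0 UMIs in 8.51 and 10.0% of butyrate cells, against 11.8 and 12.2% of control cells. At a common depth of 6500 UMIs, the shares with neither Mki67 nor Top2a were 16.3 and 17.9% in butyrate and 16.9 and 16.4% in control, which overlap. Without the Tcf7 criterion, the shares were 6.99 and 7.87% in butyrate and 7.31 and 8.23% in control, so the groups overlapped and the difference was −0.34 points. When cells were also required to have 0 UMIs of Mcm2 to Mcm7, Pcna, Cdk1, Ccnb1 and Ccna2, 14 and 22 cells remained in butyrate (0.547 and 0.828%) against 22 and 22 in control (1.07 and 0.834%). At this common depth the shares of triple-negative cells were 15 and 15.5% in butyrate and 10.4 and 9.40% in control.

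**Figure D1:**
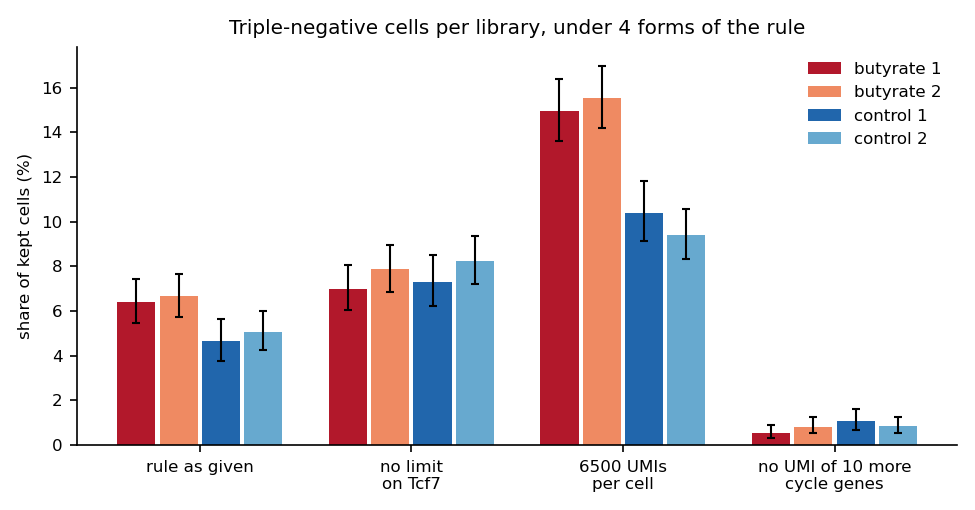
Share of cells that met the triple-negative rule in each library under 4 forms of the rule, in percent of the kept cells; each bar is a library and error bars are 95% exact binomial intervals. Butyrate lies above control under the rule as stated (6.40 and 6.66% against 4.65 and 5.08%) and below it or overlapping when Tcf7 was not limited or when further cycle genes had to be at 0 UMIs.

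The cells carried the transcripts of CD8 T cells. At least 1 UMI of Cd8a or Cd8b1 was found, at 6500 UMIs per cell, in 81.1 and 80.2% of triple-negative cells in butyrate and 88.5 and 80.6% in control, against 77.5 and 80.3% of other butyrate cells and 80.3 and 77.5% of other control cells. Over all triple-negative cells there were 2 and 0 Cd4 UMIs in butyrate and 0 and 0 in control. Cd79a, Ms4a1, Pax5, Lyz2, Csf1r, C1qa, C1qb, Adgre1, Mpeg1, Ncr1 and Clec9a had 0 UMIs. Other members of the same B cell, dendritic and myeloid lists were counted. Cd79b had 40 and 40 UMIs in butyrate and 20 and 14 in control, and H2-Ab1 116 and 145 against 108 and 131. Cd68 had 24 and 37 UMIs in butyrate and 8 and 11 in control, and Itgam 9 and 29 against 0 and 3. The marker lists of other cells given here differed between the groups, except the NK and myeloid lists, which overlapped. The summed B cell list stood at 67.9 and 68.9 CPM (counts of UMIs scaled to a common total) in butyrate against 200 and 152 in control, mostly from Ighm. The dendritic list stood at 74.9 and 74.8 CPM in butyrate against 164 and 109 in control. The NK list reached 140 and 247 CPM in butyrate and 89.0 and 244 in control, and was mostly Fcer1g and Tyrobp UMIs in butyrate and Fcer1g, Eomes and Klrb1c UMIs in control, and the gamma-delta T cell list stood at 128 and 143 CPM in butyrate against 278 and 256 in control. The myeloid list summed to 13.5 and 28.1 CPM in butyrate and 10.2 and 18.8 in control, and the CD4 and regulatory T cell list, which holds Il2ra and Tnfrsf4, to 691 and 583 CPM in butyrate against 407 and 337 in control. The part of these transcripts in the results below was not tested.

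The name resting was not fully borne out by the UMIs counted in these cells. Mcm2 to Mcm7, which encode the replicative helicase loaded onto DNA in G1 and used in S phase, summed to 482 and 420 CPM in triple-negative cells in butyrate and 188 and 315 in control, against 744 and 712 in other butyrate cells and 839 and 850 in other control cells. At 6500 UMIs per cell, 78.0 and 73.4% of triple-negative cells in butyrate and 46.9 and 62.7% in control had at least 1 Mcm UMI, and 50 and 42.9% in butyrate against 14.6 and 23.9% in control had at least 3. In RNA outside cells, Mcm6 had 119 and 140 CPM in butyrate and 96.5 and 113 in control, near or above its levels in triple-negative cells given below. These Mcm shares may thus include RNA from outside the cell and are not read as shares of cells expressing the genes. Pcna, the sliding clamp of DNA polymerase, had a UMI in 48.2 and 49.7% of triple-negative cells in butyrate and in 24.0 and 34.3% in control, against 82.4 and 79.7% of other butyrate cells and 75.6 and 73.8% of other control cells. The summed G2M list, the genes of chromosome condensation, spindle and division, was lower throughout: 1408 and 1221 CPM in butyrate and 1479 and 1894 in control triple-negative cells, against 5956 and 5986 in other butyrate cells and 9725 and 9643 in other control cells. Mitotic transcripts were thus several-fold lower than in the other cells of every library, while replication transcripts were lower by less in butyrate than in control. The rule on Mki67 and Top2a selects against mitotic transcripts, so their low level is not read as a sign of rest.

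**Figure D2:**
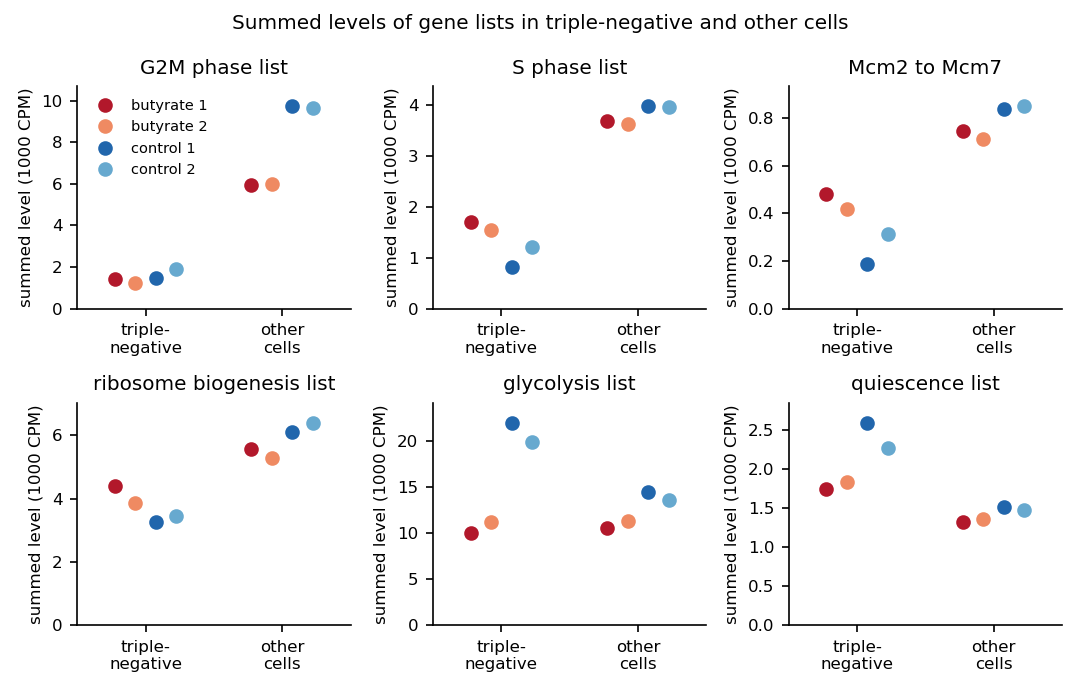
Summed level of 6 gene lists, as summed CPM without scaling, in the triple-negative and the other cells of each library; each point is a library. The G2M list is lower in triple-negative than in other cells of every library, S phase and ribosome biogenesis are lowest in control triple-negative cells, and glycolysis is highest there (21943 and 19807 CPM).

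Cells just inside and just outside the thresholds were compared by their summed Mcm level, with no test. Cells that missed it by a single UMI of Mki67 or Top2a (109 and 114 in butyrate, 35 and 62 in control) had summed Mcm levels of 628 and 596 CPM in butyrate and 667 and 633 CPM in control, and those with 2 such UMIs had 733 and 719 CPM in butyrate against 900 and 1014 CPM in control. Triple-negative cells with 2 Il7r UMIs, the most allowed, had 601 and 487 CPM in butyrate (32 and 27 cells) and 66.8 and 216 CPM in control (20 and 19 cells). Cells excluded with exactly 3 Il7r UMIs had 343 and 548 CPM in butyrate (13 and 22 cells) and 69.2 and 126 CPM in control (11 and 20 cells). Cells excluded by a single Tcf7 UMI had 664 and 471 CPM in butyrate (10 and 21 cells) and 245 and 129 CPM in control (18 and 24 cells).

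Against the other cells of the same library, 1.13% of 12777 genes were at least 1.5-fold higher in triple-negative cells in all 4 libraries (144 genes) and 4.6% at least 1.5-fold lower (588 genes). Levels of genes are CPM scaled by edgeR's trimmed mean of M values over the 8 sums of UMIs, 1 per library and class of cells, and log2 ratios were taken with 1 CPM added. The higher count was 361 without butyrate library 1 and 252 without butyrate library 2, and with library totals alone as the scale it was 94, with 704 lower. In bulk sums of this kind, fewer cells that express a gene and less RNA per cell cannot be told apart.

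The genes lowest in triple-negative cells were mitotic, a class of genes that the rule on Mki67 and Top2a selects against. In all, 50 of 52 measured G2M genes and 32 of 43 S phase genes were lower by 1.5-fold in every library, with medians of −3.11 and −1.47 log2 against −0.03 for all genes. Nusap1, which bundles spindle microtubules, had 2.74 and 1.53 CPM in triple-negative cells in butyrate and 5.53 and 3.83 CPM in control, against 107 and 101 CPM in other butyrate cells and 212 and 187 CPM in other control cells. Prc1, an organiser of the central spindle, had 6.27 and 2.67 CPM in butyrate and 5.53 and 4.93 CPM in control, against 118 and 110 CPM in other butyrate cells and 159 and 147 CPM in other control cells. Plk1, the mitotic polo-like kinase, was nearly absent, with 0.392 and 0.381 CPM in butyrate and 3.16 and 3.28 CPM in control against 43.4 and 41.7 CPM in other butyrate cells and 84.8 and 82 CPM in other control cells. Esco2, Spc25, Ccnf, Sgo2a and Pbk, with roles in cohesion, kinetochores and division, likewise had between 0 and 2.19 CPM in triple-negative cells and between 23.1 and 53.5 CPM in the other cells. The rule genes themselves stood in the other cells at 421 and 396 CPM in butyrate and 538 and 495 CPM in control for Mki67, 734 and 696 CPM in other butyrate cells and 698 and 643 CPM in other control cells for Top2a, and 8.33 and 9.44 CPM in other butyrate cells and 29.4 and 30.3 CPM in other control cells for Tcf7. Il7r, limited but not removed, had 41.2 and 42 CPM in butyrate and 54.5 and 43.2 CPM in control triple-negative cells, against 50.3 and 54.9 CPM in other butyrate cells and 44.6 and 42.2 CPM in other control cells.

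The genes highest in triple-negative cells included effector, surface and stress genes. Ccl5 (ENSMUSG00000035042, chromosome 11, 83525778 to 83530518, minus strand), a chemokine of effector and memory CD8 T cells, had 2851 and 4213 CPM in butyrate and 658 and 522 CPM in control, against 1219 and 1324 CPM in other butyrate cells and 43.7 and 87.1 CPM in other control cells, a mean log2 ratio of 2.34 ± 1.17 (SD over 4 libraries). Cd7, a surface receptor of T and NK cells, had 19.2 and 14.5 CPM in butyrate and 53.7 and 55.3 CPM in control, against 2.7 and 2.93 CPM in other butyrate cells and 8.81 and 9.56 CPM in other control cells, a ratio of 2.33 ± 0.24. The excess of Cd7 was thus similar in all libraries, whereas that of Ccl5 was wider in control. Ndrg1, a stress gene induced by low oxygen, had 33.7 and 33.6 CPM in butyrate and 156 and 109 CPM in control against 13.9 and 15.6 CPM in other butyrate cells and 32.8 and 27.5 CPM in other control cells, and Pygl, liver-type glycogen phosphorylase, 6.66 and 8.77 CPM in butyrate and 38.7 and 49.8 CPM in control against 2.78 and 3.81 CPM in other butyrate cells and 10.4 and 7.92 CPM in other control cells. Tcp11l2, Wdr95, the integrin gene Itgb3 and the cytokine gene Ifng made up the rest of the 8 largest ratios, and Ifng reached 144 and 40.8 CPM in butyrate and only 1.58 and 2.19 CPM in control.

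Of the quiescence genes, 5 of 29 were 1.5-fold higher and 1 lower in every library (median 0.49 log2), and of the inhibitory receptor genes 3 of 16 were higher (median 0.59 log2). Btg1, an antiproliferative factor, had 215 and 251 CPM in butyrate and 264 and 206 CPM in control, against 126 and 126 CPM in other butyrate cells and 87 and 80.9 CPM in other control cells. Ypel3, a gene linked to growth arrest, had 72.1 and 91.9 CPM in butyrate and 201 and 147 CPM in control, against 44.5 and 49.7 CPM in other butyrate cells and 50.4 and 47.7 CPM in other control cells. Ctla4, the inhibitory counterpart of CD28, had 174 and 161 CPM in butyrate and 171 and 131 CPM in control, against 72.1 and 92.4 CPM in other butyrate cells and 55 and 51.2 CPM in other control cells. These 3 genes were higher in triple-negative than in other cells of every library.

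Promoters of the lists these cells separate on are shown to let the regulatory letters be read beside the values. Sequences are from the RefSeq annotation of GRCm38.p6 and run from 250 bases before to 50 after the start of transcription, 5′ to 3′ on the strand of the gene, in lower case. Capitals mark the matches, on either strand, of only the motif named for that gene, and overlapping matches run together. The E2F motif was searched as TTTCGCGC or TTTGGCGC, the cell cycle homology region (CHR) as TTTGAA and the core of the hypoxia response element as ACGTG, each on both strands, and ACGTG is also contained in the E-box CACGTG. Mcm5 (chr8:75109259-75109558, plus strand) held 2 E2F matches and Mcm6 (chr1:128359656-128359955, minus strand) held 3. Plk1 (chr7:122159185-122159484, plus strand) held 1 CHR match, P4ha2 (chr11:54100674-54100973, plus strand) 2 matches of the hypoxia core, and Aldoc (chr11:78322823-78323122, plus strand, 1 of 2 listed starts, chosen by most matches) 1.
Mcm5: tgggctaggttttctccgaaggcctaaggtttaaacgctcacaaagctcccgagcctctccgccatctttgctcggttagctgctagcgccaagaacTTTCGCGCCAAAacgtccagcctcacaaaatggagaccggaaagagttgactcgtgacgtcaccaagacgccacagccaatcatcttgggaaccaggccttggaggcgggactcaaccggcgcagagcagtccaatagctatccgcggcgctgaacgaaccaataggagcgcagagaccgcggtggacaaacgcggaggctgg
Mcm6: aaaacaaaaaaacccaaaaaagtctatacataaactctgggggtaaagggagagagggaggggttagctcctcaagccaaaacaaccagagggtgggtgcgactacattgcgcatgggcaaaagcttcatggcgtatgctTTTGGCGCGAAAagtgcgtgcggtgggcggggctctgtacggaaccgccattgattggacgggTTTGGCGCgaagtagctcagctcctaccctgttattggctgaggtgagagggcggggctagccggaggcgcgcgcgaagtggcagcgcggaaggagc
Plk1: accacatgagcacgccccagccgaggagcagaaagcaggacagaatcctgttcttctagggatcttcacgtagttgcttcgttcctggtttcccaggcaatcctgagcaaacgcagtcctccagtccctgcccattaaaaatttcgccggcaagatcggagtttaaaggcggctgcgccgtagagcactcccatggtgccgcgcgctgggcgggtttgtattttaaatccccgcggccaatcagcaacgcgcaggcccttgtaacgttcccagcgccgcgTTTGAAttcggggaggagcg
P4ha2: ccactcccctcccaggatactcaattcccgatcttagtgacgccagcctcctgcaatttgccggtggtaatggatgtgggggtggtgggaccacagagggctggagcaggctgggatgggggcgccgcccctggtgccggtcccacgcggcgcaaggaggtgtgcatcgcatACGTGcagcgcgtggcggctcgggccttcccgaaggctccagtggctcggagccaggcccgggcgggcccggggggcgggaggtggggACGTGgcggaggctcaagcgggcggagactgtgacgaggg
Aldoc: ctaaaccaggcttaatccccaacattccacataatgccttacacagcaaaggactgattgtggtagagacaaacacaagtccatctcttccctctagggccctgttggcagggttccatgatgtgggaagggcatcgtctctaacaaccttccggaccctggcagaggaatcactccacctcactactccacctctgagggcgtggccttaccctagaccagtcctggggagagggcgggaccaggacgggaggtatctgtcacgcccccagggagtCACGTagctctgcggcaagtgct

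The E2F letters were found in 9 of 31 S phase genes matched to a promoter (29%), against 251 of 27025 genes in all (0.929%). The CHR was found in 32 of 46 matched G2M genes (69.6%), against 20.2% of all genes, and in 6 of 31 S phase genes (19.4%). The hypoxia core was found in 13 of 19 matched glycolysis genes (68.4%), against 21.8% of all genes. A gene counted if any of its promoters matched, and per promoter these shares were 48.4% and 19.6%. The CCAAT box was found in 71.0% of S phase and 76.1% of G2M genes against 41.1% of all, and CACGTG in 4 of 20 ribosome biogenesis genes (20%) against 8.09%. A match describes letters in this window and not a site in use.

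Within triple-negative cells, butyrate was compared with control over 8770 genes. The UMI sums of the 4 libraries entered edgeR's quasi-likelihood test with Benjamini-Hochberg adjustment, and an adjusted p under 0.05 counted as passing. Of these genes, 18.8% (1650) rose and 17.6% (1541) fell in butyrate, 36.4% in either direction, with a median log2 change of −0.01. Counts of list genes below are to be set against these shares of all genes. Genes with too few UMIs for edgeR's filter on low counts were not tested. The p-values measure the spread between 2 cultures per group, from the same 2 mice. The lower count was 997 without butyrate library 1, and with library totals as the scale 1290 genes were higher and 1900 lower, or 40.4% of calls higher in place of 51.7%, at a median of −0.12. The sums held 2738275 and 2886313 UMIs in butyrate against 1269949 and 1808733 in control.

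Replication genes rose in butyrate triple-negative cells. Of 39 S phase genes tested, 25 rose and 0 fell, with a median log2 change of 0.74 against −0.01 for all genes. The rule on Mki67, Top2a and Tcf7 chose the cells of both groups before this test. Its part in the changes of S phase, G2M, quiescence and memory genes cannot be told apart from butyrate. With DESeq2 13 rose, and with the rule applied after thinning 17 rose and 3 fell. Mcm2, a helicase subunit, had 76.8 and 76.7 CPM in butyrate and 15.8 and 40.5 CPM in control, a log2 change of 1.35 ± 0.25 (SE, adjusted p = 0.00046). Mcm3 had 138 and 114 CPM in butyrate against 46.6 and 70.6 CPM in control (1.06 ± 0.17), and Mcm6 had 119 and 110 CPM in butyrate against 60.8 and 77.7 CPM in control (0.69 ± 0.15, adjusted p = 0.00074). Butyrate libraries were above both control libraries for all 3 genes. Such separation, here and below, is description, since the genes given were picked by p-value, by a rule or after their values were seen. Mcm5 had 56 and 48.1 CPM in butyrate and 27.7 and 52 CPM in control, which overlap, and did not pass (log2 change 0.32, adjusted p = 0.24). Rrm2, the small subunit of ribonucleotide reductase, had 22.7 and 23.6 CPM in butyrate against 4.74 and 9.85 CPM in control (1.57 ± 0.31), and Tipin, part of the replication fork protection complex, 107 and 85.1 CPM in butyrate against 31.6 and 50.4 CPM in control (1.18 ± 0.19). These levels stood below those of the other cells, where Rrm2 had 208 and 213 CPM in butyrate and 150 and 149 CPM in control. When the cells with any UMI of Mcm2 to Mcm7, Pcna, Cdk1, Ccnb1 or Ccna2 were left out, no S phase gene had enough UMIs to be tested.

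G1 regulators moved in both directions. Of 20 tested, 9 rose (45%) and 2 fell (10%), against 18.8% and 17.6% of all genes tested. Ccne1, cyclin E, which drives entry into S phase, had 43.1 and 37.8 CPM in butyrate and 14.2 and 10.4 CPM in control (1.73 ± 0.25 log2), and Cdk6, a kinase of G1, had 247 and 228 CPM in butyrate against 122 and 91.4 CPM in control (1.15 ± 0.14). The inhibitors p27 and p21 moved oppositely. Cdkn1b, which encodes p27, had 16.1 and 22.5 CPM in butyrate and 131 and 106 CPM in control, a log2 change of -2.62 ± 0.19 (adjusted p = 3.6e-11). Cdkn1a, which encodes p21, had 192 and 178 CPM in butyrate and 61.6 and 74.5 CPM in control, a log2 change of 1.41 ± 0.14 (adjusted p = 1.2e-08). Neither gene overlapped between groups. At 6500 UMIs per cell, Cdkn1b had a UMI in 10.4 and 14.1% of triple-negative cells in butyrate against 55.2 and 47.0% in control, and Cdkn1a in 56.7 and 49.2% in butyrate against 21.9 and 26.1% in control. Cdkn2a, which encodes p16 and p19ARF in mouse, rose to 22.3 and 30.5 CPM in butyrate, against 3.16 and 2.19 CPM in control (3.31 ± 0.39), and Ccng2, an atypical cyclin of arrested cells, fell to 4.7 and 4.58 CPM, against 39.5 and 32.3 CPM in control (-2.93 ± 0.29).

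Of the G2M genes left in these cells, 5 of 33 tested rose and 10 fell, 5 without butyrate library 2. The fall was 27 genes, with 2 higher, when the rule was applied after thinning, 3 genes from thinned UMIs and 4 with DESeq2. In the main fit 15.2% of the G2M genes rose and 30.3% fell, against 18.8% and 17.6% of all genes tested. Hmgb2, a chromatin protein of dividing cells, had 370 and 315 CPM in butyrate and 513 and 682 CPM in control (-0.82 ± 0.12 log2), and Cks1b, a partner of cyclin-dependent kinases, had 95.2 and 69 CPM in butyrate against 33.2 and 47.6 CPM in control (0.98 ± 0.19). Hmgb2 was thus lower and Cks1b higher in both butyrate libraries.

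Quiescence genes fell more often than they rose. Of 27 tested, 2 rose and 13 fell (median −0.33 log2), with 8 lower without butyrate library 1 and also 8 without butyrate library 2, 8 from thinned UMIs and 6 with DESeq2. Slfn2, which keeps T cells quiescent, had 30.6 and 49.6 CPM in butyrate and 190 and 198 CPM in control (-2.29 ± 0.17 log2, adjusted p = 6.0e-11). Pik3ip1, an inhibitor of PI3 kinase, had 6.66 and 9.54 CPM in butyrate against 56.9 and 46 CPM in control (-2.65 ± 0.25). Btg2, an antiproliferative factor, had 54.5 and 89.3 CPM in butyrate against 210 and 193 CPM in control (-1.50 ± 0.17). All 3 were lower in both butyrate libraries than in either control library. Foxo1, a transcription factor of quiescent and memory T cells, went the other way, with 113 and 124 CPM in butyrate and 61.6 and 54.7 CPM in control (1.02 ± 0.15). Mxd4, which opposes Myc, fell to 8.62 and 14.1 CPM in butyrate, against 100 and 112 CPM in control (-3.24 ± 0.20, adjusted p = 1.5e-12).

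Of 17 tested genes of memory and lymph node entry, 2 rose and 7 fell (median −0.57 log2), with 4 lower with DESeq2. Cd27, a costimulatory receptor of memory cells, had 27.4 and 37 CPM in butyrate and 115 and 134 CPM in control (-1.96 ± 0.17). Satb1, a chromatin organiser of T cells, had 70.9 and 75.9 CPM in butyrate against 228 and 215 CPM in control (-1.61 ± 0.13), and S1pr1, the receptor for exit from lymphoid tissue, 14.5 and 12.2 CPM in butyrate against 37.1 and 29 CPM in control (-1.30 ± 0.24). These 3 were lower in both butyrate libraries. Itgb7, the integrin subunit of gut homing, was higher, with 307 and 310 CPM in butyrate and 173 and 183 CPM in control (0.78 ± 0.12).

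Effector genes rose more often than they fell. Of 31 tested, 14 rose and 3 fell (median 1.26 log2), and 19 rose with the mouse as a block. Gzmb (ENSMUSG00000015437, chromosome 14, 56258838 to 56262260, minus strand), which encodes granzyme B, had 9587 and 9875 CPM in butyrate and 1847 and 1740 CPM in control, a log2 change of 2.42 ± 0.10 (adjusted p = 5.5e-17). Prf1, which encodes perforin, had 763 and 965 CPM in butyrate against 81.4 and 73.9 CPM in control (3.47 ± 0.14). Gzma, granzyme A, had 11899 and 15352 CPM in butyrate against 1076 and 1848 CPM in control (3.20 ± 0.40, adjusted p = 0.028), and Ccl5 had 2851 and 4213 CPM in butyrate against 658 and 522 CPM in control (2.57 ± 0.24). Butyrate libraries were higher than both control libraries for all 4. RNA outside cells also differed, with 6217 and 9384 CPM of Gzma in butyrate and 1274 and 1350 in control. For Prf1 it held 262 and 410 CPM in butyrate and 30.1 and 31.6 in control. For Gzmb it held 10286 and 10162 CPM in butyrate and 2508 and 2643 in control, above the levels in the cells. The part of this RNA in these changes was not tested. Ccl4, a chemokine for activated T cells and monocytes, rose to 341 and 469 CPM in butyrate, against 7.11 and 4.38 CPM in control (6.17 ± 0.24, adjusted p = 2.3e-16). RNA outside cells held 106 and 114 CPM of Ccl4 in butyrate and 9.56 and 6.84 in control. Lta, lymphotoxin alpha, had 664 and 369 CPM in butyrate against 26.9 and 17 CPM in control (4.59 ± 0.60, adjusted p = 0.027). Ifng did not pass (adjusted p = 0.16) despite higher values in both butyrate libraries. Fasl, the death ligand, fell to 34.1 and 40.4 CPM in butyrate, against 60.8 and 55.8 CPM in control (-0.65 ± 0.18).

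Il10 (ENSMUSG00000016529, chromosome 1, 131019845 to 131024974, plus strand), an anti-inflammatory cytokine that effector CD8 T cells can make, had the largest rise among the genes named by rule, with 101 and 83.5 CPM in butyrate triple-negative cells and 0.79 and 0.547 CPM in control (fitted log2 change 7.02 ± 0.38, adjusted p = 4.7e-14). Over all triple-negative cells this was 477 UMIs in butyrate against 2 in control, a ratio of CPM of 143 with a 95% counting interval of 39.2 to 1181. Esm1, a secreted proteoglycan, had 246 UMIs in butyrate against 3 in control, a ratio of 49.0 (16.6 to 239), with 40 and 54.9 CPM in butyrate against 0.79 and 1.09 CPM in control. In barcodes of 10 to 100 UMIs, which hold RNA outside cells, Il10 had 15.8 and 22.8 CPM in butyrate and 0.579 and 0.708 in control, below its level in the butyrate cells. Cd63, a tetraspanin of granule membranes, rose to 38 and 41.6 CPM in butyrate, against 0.79 and 2.19 CPM in control, and Pmepa1, a brake on TGF-β signalling, to 81.9 and 63.3 CPM in butyrate, against 3.95 and 5.47 CPM in control. Batf3 (ENSMUSG00000026630, chromosome 1, 191097847 to 191108945, plus strand), an AP-1 family factor, had 47.4 and 35.5 CPM in butyrate and 3.95 and 1.09 CPM in control (4.14 ± 0.38, adjusted p = 3.2e-09).

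**Figure D3:**
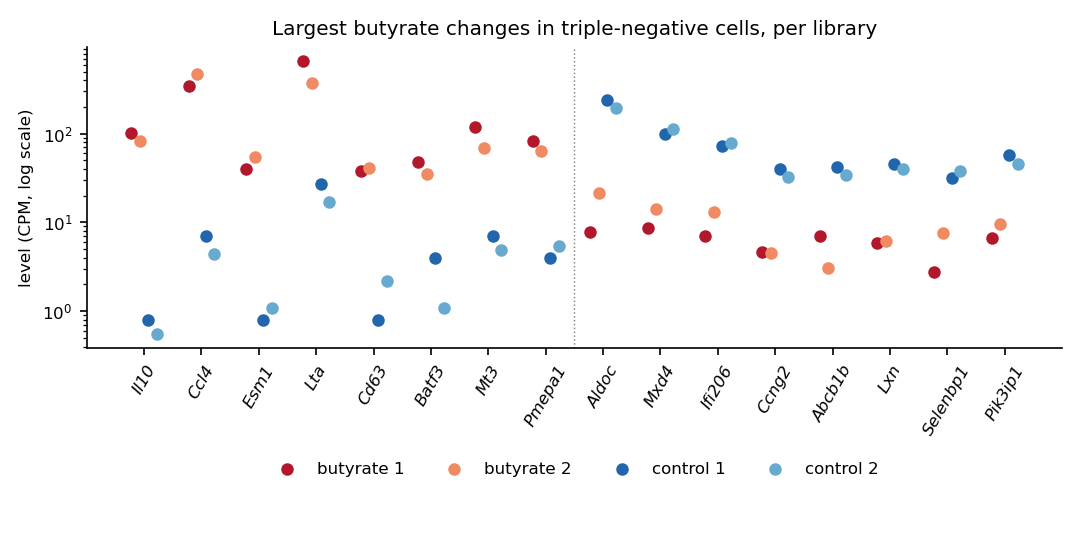
Levels of the genes with the largest changes between butyrate and control triple-negative cells, in TMM-scaled CPM on a log axis; each point is a library. Il10, Ccl4 and Esm1 are the most separated among the higher genes and Aldoc and Mxd4 among the lower, and groups that do not overlap were a condition for a gene to be drawn.

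Glycolysis genes fell as a group. Of 20 tested, 0 rose and 18 fell (median −1.01 log2), and their sum was 9990 and 11215 CPM in butyrate against 21943 and 19807 in control. Aldoc (ENSMUSG00000017390, chromosome 11, 78322968 to 78327781, plus strand), an aldolase isoform, had 7.84 and 21.4 CPM in butyrate and 242 and 193 CPM in control, a log2 change of -3.89 ± 0.34 (adjusted p = 0.00016). Tpi1, triose phosphate isomerase, had 477 and 536 CPM in butyrate against 1339 and 1277 CPM in control (-1.39 ± 0.10), and Gapdh 3433 and 4024 CPM in butyrate against 7552 and 6832 CPM in control (-0.97 ± 0.10). Pdk1, a kinase that inhibits pyruvate dehydrogenase, had 21.6 and 22.1 CPM in butyrate against 95.6 and 78.3 CPM in control (-1.99 ± 0.18). Each was lower in both butyrate libraries. With the stricter rule on cycle genes, 9 of 19 tested glycolysis genes fell.

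Ribosome biogenesis genes moved the other way, with 19 of 25 tested higher and 0 lower (median 0.78 log2). Nolc1, a nucleolar phosphoprotein, had 134 and 105 CPM in butyrate and 30 and 35 CPM in control (1.85 ± 0.18), and Nop58, a core protein of box C/D ribonucleoproteins, 173 and 145 CPM in butyrate against 43.5 and 51.5 CPM in control (1.71 ± 0.16). Myc, a driver of this program, had 240 and 160 CPM in butyrate and 89.3 and 66.8 CPM in control (1.36 ± 0.20). All 3 were higher in both butyrate libraries. With the stricter rule on cycle genes, 0 of 5 tested ribosome biogenesis genes passed and the median was −0.21.

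Cholesterol synthesis genes fell in 16 of 23 tested and rose in 0 (median −0.76 log2), with 10 lower without butyrate library 1, 10 at a mitochondrial limit of 5% and 7 with DESeq2. Cyp51, a demethylase of the pathway, had 25.9 and 26.7 CPM in butyrate against 49 and 56.9 CPM in control (-1.04 ± 0.19). Interferon response genes split, with 7 of 26 higher and 12 lower, the higher count falling to 4 without butyrate library 1, without control library 2 or with DESeq2. Samd9l, an interferon-induced antiviral factor, had 27.8 and 30.1 CPM in butyrate and 150 and 111 CPM in control (-2.17 ± 0.18). Isg20, an interferon-induced exonuclease, had 103 and 117 CPM in butyrate against 38.7 and 47.6 CPM in control (1.32 ± 0.16).

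Of 17 IL-2 and STAT5 targets tested, 9 rose and 2 fell (median 0.85 log2). Il2ra, the alpha chain of the IL-2 receptor, had 417 and 357 CPM in butyrate and 124 and 100 CPM in control (1.78 ± 0.13), and Osm, oncostatin M, 73.3 and 59.5 CPM in butyrate against 8.69 and 8.76 CPM in control (2.9 ± 0.24). Among activation and costimulation genes 6 of 16 rose and 2 fell, with 3 higher without butyrate library 1 and 2 with DESeq2 or at a mitochondrial limit of 5%, and Tnfrsf4, the receptor OX40, had 113 and 91.5 CPM in butyrate against 18.2 and 11.5 CPM in control (2.82 ± 0.22). Inhibitory receptor genes were evenly split, 4 of 11 higher and 4 lower, but 6 and 2 with the rule applied after thinning. Havcr2, which encodes TIM-3, had 72.9 and 82 CPM in butyrate and 17.4 and 24.6 CPM in control (1.83 ± 0.20), and Lag3 had 45.5 and 44.2 CPM in butyrate against 112 and 68.4 CPM in control (-1.0 ± 0.20).

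Genes known to answer to histone deacetylase inhibitors rose in 10 of 14 tested and fell in 1 (median 1.43 log2). This list, like the others, was chosen with earlier results of these data known, so the count is description and no independent support. Ckb, brain-type creatine kinase, had 132 and 113 CPM in butyrate and 9.48 and 11.5 CPM in control (3.50 ± 0.21), and Mt3, a metallothionein, 119 and 69.4 CPM in butyrate against 7.11 and 4.93 CPM in control (3.99 ± 0.36). Apoptosis and p53 genes rose in 7 of 19 and fell in 3, with 12 higher with the rule applied after thinning. The main shares were 36.8% higher and 15.8% lower, against 18.8% and 17.6% of all genes tested. Gadd45g, a stress gene, had 678 and 628 CPM in butyrate and 94 and 108 CPM in control (2.67 ± 0.13), and Bbc3, the death gene PUMA, 22.3 and 18.7 CPM in butyrate against 66.4 and 70.6 CPM in control (-1.76 ± 0.19). Of 13 mitochondrially encoded genes 0 rose and 1 fell, mt-Nd6 (adjusted p = 0.031), a call that did not pass without butyrate library 1, without butyrate library 2 or without control library 1. Of 8 CD8 T cell marker genes 1 rose and 4 fell (median −0.33 log2). Cd8a rose to 220 and 183 CPM in butyrate, against 156 and 120 CPM in control (0.54 ± 0.14), and Cd3e fell to 340 and 415 CPM, against 578 and 560 CPM in control (-0.61 ± 0.11).

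Whether butyrate acted differently in triple-negative cells than in the other cells of the same cultures was tested by a class by treatment term in a fit of all 8 sums with the library as a block, over 12777 genes. The term was positive for 6.54% of genes (835) and negative for 5.05% (645), 11.6% in either direction, where positive means a higher butyrate over control ratio in triple-negative cells. Without butyrate library 1 the counts were 436 and 257, without butyrate library 2 the negative count was 429, and without control library 1 the counts were 519 and 368. With library totals alone 70.2% of calls were positive in place of 56.4%, at a median over all genes of 0.12 in place of 0.03.

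Ribosome biogenesis and S phase were the lists with the most positive terms. In ribosome biogenesis 20 of 25 genes were positive and 0 negative (median 0.97 log2), 13 positive from thinned UMIs. Bop1 (ENSMUSG00000022557, chromosome 15, 76452989 to 76477277, minus strand), needed to process ribosomal RNA, had 50.2 and 52.6 CPM in triple-negative cells in butyrate and 10.3 and 14.8 CPM in control, against 53.2 and 53.1 CPM in other butyrate cells and 37.7 and 42.2 CPM in other control cells, a difference of 1.60 ± 0.23 (adjusted p = 5.2e-09). Wdr75, of the same process, had 32.5 and 24 CPM in butyrate and 7.11 and 7.66 CPM in control, against 33.5 and 30.7 CPM in other butyrate cells and 27.8 and 31.4 CPM in other control cells (1.82 ± 0.30). In butyrate both genes stood near the level of the other cells, and in control they were lower in triple-negative cells. Of 43 S phase genes 23 were positive and 0 negative (median 0.66 log2), but 14 without butyrate library 1 and 11 without control library 1. The positive count was 10 with the rule applied after thinning, 10 from thinned UMIs, 12 with DESeq2 and 13 at a mitochondrial limit of 5%. Mcm7, a helicase subunit, had 77.6 and 73.2 CPM in butyrate and 19 and 42.7 CPM in control, against 138 and 135 CPM in other butyrate cells and 152 and 145 CPM in other control cells (1.32 ± 0.18). The linker histone genes Hist1h1a (1.84 ± 0.35) and Hist1h1b (1.70 ± 0.25) were also positive. Of 52 G2M genes 9 were positive and 0 negative, 5 without butyrate library 1. The rule keeps cycle transcripts low in triple-negative cells of both groups, so the part of the selection in the terms of S phase and G2M genes cannot be told apart from butyrate.

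Batf3 had the largest positive term, 2.64 ± 0.42, with 45.1 and 46.7 CPM in other butyrate cells and 11.6 and 18.7 CPM in other control cells. It did not pass without control library 2, where the term was 1.43, nor with DESeq2, and it rests on 5 and 2 UMIs in control triple-negative cells. Gemin6, of the SMN complex (1.61 ± 0.43), did not pass without control library 1 or with DESeq2. Aen, an exonuclease induced by p53, had 52.5 and 38.5 CPM in butyrate and 6.32 and 8.76 CPM in control, against 41.7 and 42.9 CPM in other butyrate cells and 21 and 26.3 CPM in other control cells (1.74 ± 0.28), and Zmynd19 had 34.5 and 27.8 CPM in butyrate and 6.32 and 7.12 CPM in control, against 40.5 and 36.1 CPM in other butyrate cells and 26.1 and 28.8 CPM in other control cells (1.73 ± 0.30).

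Glycolysis was the list with the most negative terms, 18 of 20 genes with 0 positive (median −0.64 log2). P4ha2 (ENSMUSG00000018906, chromosome 11, 54100095 to 54131665, plus strand), a collagen prolyl hydroxylase induced by low oxygen, had 10.2 and 13 CPM in triple-negative cells in butyrate and 47.4 and 48.2 CPM in control, against 10.2 and 12.1 CPM in other butyrate cells and 14.6 and 12.3 CPM in other control cells (-1.79 ± 0.25, adjusted p = 4.9e-10). Its control triple-negative cells stood apart from the remaining sums. In the other cells control lay slightly above butyrate, with no overlap. Mgarp, a mitochondrial protein gene, was also highest in control triple-negative cells, with 13.3 and 13.4 CPM in butyrate and 56.9 and 47.1 CPM in control against 8.2 and 10.2 CPM in other butyrate cells and 11.6 and 9.68 CPM in other control cells (-1.75 ± 0.24). Aldoc was lower in butyrate in both classes, with 6.63 and 8.77 CPM in other butyrate cells and 44.7 and 36.9 CPM in other control cells (-1.49 ± 0.19), and Aldoa had 1183 and 1451 CPM in butyrate and 2840 and 2254 CPM in control against 1327 and 1365 CPM in other butyrate cells and 1302 and 1192 CPM in other control cells (-1.06 ± 0.07). Aldoa thus differed between treatments mainly in triple-negative cells.

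Several genes that were higher in control triple-negative cells than in the other control cells also had negative terms. Gsn (ENSMUSG00000026879, chromosome 2, 35256380 to 35307892, plus strand), the actin-severing protein gelsolin, had 132 and 163 CPM in triple-negative cells in butyrate and 145 and 111 CPM in control, which overlap, against 92.5 and 103 CPM in other butyrate cells and 29.5 and 27.2 CPM in other control cells, which do not overlap (-1.56 ± 0.13, adjusted p = 5.4e-26). Gadd45b had 31 and 28.2 CPM in butyrate and 30.8 and 25.2 CPM in control, against 28.6 and 28.5 CPM in other butyrate cells and 9.44 and 11 CPM in other control cells (-1.37 ± 0.23). Itgb3 had 27.4 and 26.3 CPM in butyrate and 67.2 and 56.4 CPM in control, against 13.6 and 14.3 CPM in other butyrate cells and 9.93 and 9.46 CPM in other control cells (-1.71 ± 0.21). Sat1, the rate-limiting enzyme of polyamine breakdown, had a term of -1.40 ± 0.16, and Selenom, a selenoprotein of the endoplasmic reticulum, of -1.32 ± 0.29. Of 34 effector genes 8 were negative and 2 positive, with 4 negative without butyrate library 1 and 5 with DESeq2. Negative terms made up 23.5% and positive terms 5.88% of these effector genes, against 5.05% and 6.54% of all genes tested. Prf1 had 568 and 597 CPM in other butyrate cells and 24.3 and 28.5 CPM in other control cells (-0.97 ± 0.13), so its fold was larger in the other cells. Of 29 quiescence genes 9 were negative and 1 positive, with 5 negative without butyrate library 1 and 4 from thinned UMIs. Ypel3 had a term of -1.01 ± 0.13.

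**Figure D4:**
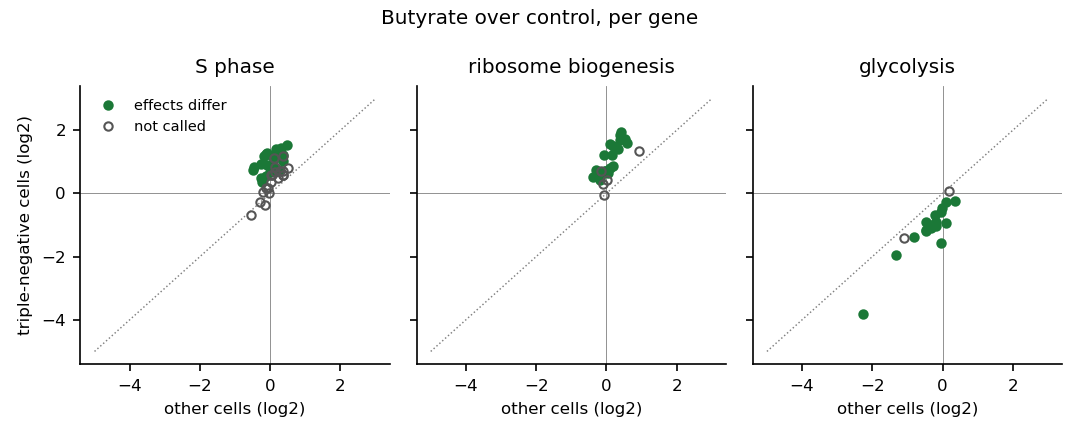
Butyrate over control log2 change in triple-negative cells (vertical axis) against that in the other cells (horizontal axis) for the genes of 3 lists, as log2 ratios of the group mean CPM with 1 CPM added; each point is a gene, filled where the class by treatment term passed, and the dotted line marks equal change. The 23 S phase and 20 ribosome biogenesis genes that passed lie above the line and the 18 glycolysis genes that passed lie below it, with Aldoc the lowest point.

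Triple-negative cells were not uniform. The genes with the largest variance over mean among them, at 6500 UMIs per cell, were Ccl5, Gzma, Gzmc, Malat1, Gzmb, Tmsb4x, Ccl4, Ifitm1, Gzme and Actb. Ccl5 had a UMI in 72.6 and 76.8% of triple-negative cells in butyrate and in 40.6 and 41.8% in control, against 57.7 and 58.6% of other butyrate cells and 14.9 and 17.7% of other control cells. The median triple-negative cell had 4 and 6 Ccl5 UMIs in butyrate and 0 and 0 in control. The tenth of triple-negative cells with most Ccl5 held 58.8 and 55.1% of its UMIs in butyrate and 85.9 and 82.1% in control, so the transcript was concentrated in few cells in control. Cells with at least 30 Ccl5 UMIs numbered 30 and 41 in butyrate and 3 and 3 in control. In barcodes of 10 to 100 UMIs, Ccl5 had 2139 and 2697 CPM in butyrate and 167 and 201 in control, and the sort left no other cell type in which a background share could be read, so shares of cells with 1 UMI may include RNA from outside the cell.

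Gzmb, the granzyme B gene, had a UMI in 100% of triple-negative cells in both butyrate libraries, against 95.8 and 95.5% in control, with medians of 33 and 32 UMIs in butyrate against 6 and 6 in control, and free RNA held 10286 and 10162 CPM of Gzmb in butyrate and 2508 and 2643 CPM in control. Prf1 had a UMI in 63.4 and 60.5% of triple-negative cells in butyrate and in 21.9 and 20.1% in control. Ccl4 had a UMI in only 16.5 and 23.7% in butyrate and in 4.17 and 2.24% in control, and the tenth of cells with most Ccl4 held 96.0 and 89.4% of its UMIs in butyrate. Free RNA held Gzmb at levels near those in the cells, so its share of cells with a UMI is not read as a share of cells expressing it.

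**Figure D5:**
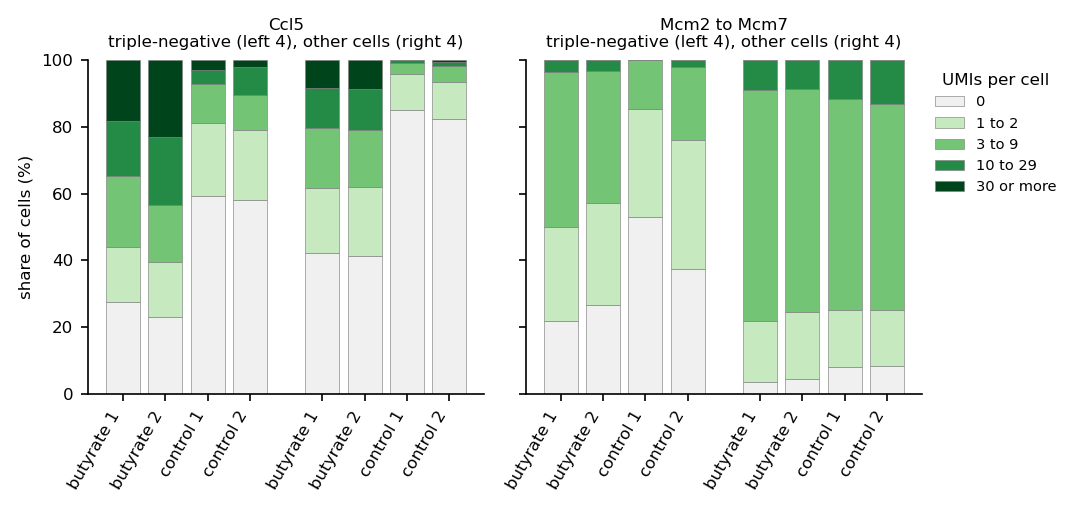
Share of triple-negative cells (left 4 bars of each panel) and of other cells (right 4 bars) by number of UMIs of Ccl5 and of Mcm2 to Mcm7 after thinning to 6500 UMIs per cell, in percent of the cells of that class and library. Among triple-negative cells, those at 0 Ccl5 UMIs are the largest class in control (59.4 and 58.2%) and cells with 3 to 9 Mcm UMIs the largest in butyrate (46.3 and 39.5%).

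Split by Mcm2 to Mcm7, 36 and 47 triple-negative cells in butyrate and 51 and 50 in control had no such UMI, and 82 and 76 in butyrate against 14 and 32 in control had at least 3. Among cells with no Mcm UMI, Ccl5 was seen in 75 and 89.4% in butyrate and 43.1 and 48.0% in control, and among cells with at least 3 in 67.1 and 72.4% in butyrate against 28.6 and 25% in control. Cdkn1b was seen in 13.9 and 12.8% in butyrate and 52.9 and 56.0% in control of the cells with no Mcm UMI, and in 6.10 and 17.1% in butyrate against 35.7 and 28.1% in control of those with at least 3. In both strata Ccl5 was seen more often and Cdkn1b less often in the butyrate libraries than in either control library. The strata are groups by counted Mcm UMIs, which may include RNA from outside the cell.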

How the data were processed

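The deposited matrices hold raw UMI counts per gene and droplet barcode, with no cell filter, for 32285 genes and 6794880 barcodes per library; Cell Ranger 4, Seurat 4.3 and the mm10 build are listed in the submitters' processing notes. Neither the annotation release nor the counting of introns is stated there (not given in the sources used here). GENCODE M21 (GRCm38) held 32158 of the gene IDs and gave coordinates. The members and gene lists were chosen with earlier results of these data known. Cells were taken at 6500 UMIs, 500 genes and under 10% mitochondrial UMIs. No doublet caller was run, and an alternative left out the 5% of cells with most UMIs. UMIs were summed per library and class of cells and tested in R 4.3.3 with edgeR 4.0.16 (TMM scaling, filterByExpr, robust quasi-likelihood test, Benjamini-Hochberg), with treatment as the only term for butyrate against control and with the library as a block for the class by treatment term. The scripts were tested on simulated counts. DESeq2 1.42.0 was an alternative. Other values used numpy 2.4.6, scipy 1.17.1 and pandas 2.3.3. Levels are TMM-scaled CPM. List sums and RNA outside cells are CPM without TMM scaling. Shares of cells with a UMI were taken after thinning each cell to 6500 UMIs.

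Named genes were the 8 largest increases and 8 largest decreases passing 0.05 whose mean reached 20 CPM and whose groups did not overlap, without predicted, ribosomal, mitochondrial and receptor segment genes, and likewise for the class by treatment term. For triple-negative against other cells they were the 8 largest and 8 smallest ratios. The 10 most variable genes and for each list up to 3 genes of smallest p were added. Other list members given in the text were chosen after their values were seen. Cultures with the same replicate number came from the same mouse, so the mouse as a block was an alternative; deviations of same-mouse cultures from their group means correlated at −0.139 across 2138 genes. UMIs of close paralogues such as granzymes may be assigned to the wrong member. Some genes of the lists are not reported here.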

Additional observations from a re-analysis of the deposited data

Results flagged for a closer look

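The results below stand out because the change with butyrate differed between triple-negative cells and the other cells of the same cultures, by the class by treatment term of edgeR's quasi-likelihood test with Benjamini-Hochberg adjustment. The term was positive for 835 genes and negative for 645. The largest positive terms, in log2 units, were 2.64 for Batf3, 1.84 for Hist1h1a, 1.82 for Wdr75, 1.74 for Aen, 1.73 for Zmynd19, 1.70 for Hist1h1b, 1.61 for Gemin6 and 1.60 for Bop1. The largest negative terms were −1.79 for P4ha2, −1.75 for Mgarp, −1.71 for Itgb3, −1.56 for Gsn, −1.49 for Aldoc, −1.40 for Sat1, −1.37 for Gadd45b and −1.32 for Selenom. Batf3 and Gemin6 did not pass with DESeq2 or when 1 control library was left out.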

How the results depend on the processing

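Depth limits genes with few UMIs in control triple-negative cells, and 2 cultures per group limit every p-value. Genes rising and falling in butyrate triple-negative cells numbered 811 and 600 with DESeq2, 1038 and 963 from thinned UMIs and 105 and 98 under the stricter rule on cycle genes, and lay at 1192 to 1474 and 997 to 1261 when 1 library was left out. Positive and negative class by treatment terms numbered 296 and 289 with DESeq2, 255 and 272 from thinned UMIs, 14 and 49 under the stricter rule and 529 and 425 at a mitochondrial limit of 5%, with 436 to 718 and 257 to 440 when 1 library was left out. For triple-negative against other cells, genes higher and lower numbered 10 and 317 at 2-fold, and 244 and 1691 under the stricter rule. The higher count was 94 with library totals alone, 16 with the rule applied after thinning, 84 from thinned UMIs, 92 at the 5% limit, 77 without the cells with most UMIs and 171 to 361 when 1 library was left out, and the lower count was then 622 to 802. The counts of this contrast under the stricter rule, with thinning, at the 5% limit and without the cells with most UMIs also used library totals as the scale. They compare with 94 higher and 704 lower, not with the TMM-scaled counts. The difference in the share of triple-negative cells, 1.67 points, was 5.34 with the rule after thinning, 1.05 at the 5% limit, 2.29 at a minimum of 13000 UMIs, −0.34 with no Tcf7 limit and −0.26 under the stricter rule. Under the stricter rule the counts for butyrate and for the terms were lower, but those for triple-negative against other cells were higher. That rule keeps fewer cells and also leaves out cells with Mcm UMIs, and the parts of both were not tested.

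Under the stricter rule these class by treatment terms turned sign: Batf3 −0.52, Gemin6 −0.036, Hells −1.50, Mcm3 −0.12, Tmpo −0.52, Tfrc −0.054, Osm −0.17, Il2ra −0.32, Ikzf2 0.38, mt-Nd4l −0.39 and mt-Nd1 −0.20. The stricter rule holds Mcm3 at 0 UMIs in the triple-negative cells of both groups, so its term there is set by the rule. With the rule after thinning, Ifitm3 was at −0.014. List medians that turned sign were −0.025 for G1 regulators and −0.21 for ribosome biogenesis in butyrate against control, and −0.19 for S phase in the term, all under the stricter rule. The S phase list includes Mcm2 to Mcm7 and Pcna, which that rule holds at 0 UMIs, so its median there is partly set by the rule. The G2M median of the term was −0.0036 without control replicate 1, up to 0.32 with 1 other library left out, and −0.057 with the rule after thinning.

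With the mouse as a replicate block, 1618 genes rose and 1513 fell, and the terms were positive for 694 and negative for 523. Among the genes named by rule, the block ended the class by treatment calls of Bst2 and mt-Nd1 and no other call. With the replicate numbers crossed, chosen after seeing the data, the counts were 1845 and 1717, and 885 and 687.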
